A study of Mus musculus with 6 samples.

Results

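The genes described here are the IL-6 family cytokines and receptors of the mouse, namely the ligands Il6, Il11, Lif and Osm, the ligand-binding receptors Il6ra and Il11ra1, and the signalling receptors Il6st, Lifr and Osmr. They were taken by gene symbol, and all 9 were found among the 24493 genes of the deposited table. RNA had been sequenced from pancreatic tumor cells, named 6419c5 in the titles, that were sorted out of tumors growing under the skin of C57BL/6 mice. In 2 libraries the mice had received GAFCP, which joined gemcitabine and abraxane (chemotherapy) with a CD40 agonist and with blockade of CTLA-4 and of PD-1, and 4 libraries were controls without this treatment. All 6 libraries share the strain, the implanted cell name and the subcutaneous site. Age, dose, schedule, sort gate and the origin of each library from its own tumor are not given in the labels, so a p-value here reflects library-to-library spread alone, possibly technical. Values are TPM, which scale transcript abundance for transcript length and to a fixed total, so levels of different genes can be compared. TPM keeps no sequencing depth: the depth is unknown, and the number of libraries limits the precision.

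Cytokines of this family share gp130, the receptor chain encoded by Il6st, and differ in the partner chain that joins it. IL-6 and IL-11 first bind their own receptors (Il6ra, Il11ra1), which then bring gp130 chains together, whereas LIF assembles gp130 with LIFR, and mouse oncostatin M (Osm) assembles gp130 mainly with OSMR. JAK kinases bound to these chains activate STAT3, which switches on Socs3 as a brake, and in the pancreas this pathway is known for its part in inflammation and in tumor growth. LIF and IL-6 in pancreatic tumors are known to come in part from fibroblasts, and oncostatin M from myeloid cells and T cells.

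Of the 8 members that reached 1 TPM in 2 or more libraries, the filter used, 5 were higher with GAFCP (Lif, Osm, Il6ra, Lifr and Osmr) and 0 were lower. Over all 13720 genes tested, 19.0% were called higher and 28.5% lower, 47.5% in all, at a limma adjusted p under 0.05. Both GAFCP libraries lay above every control for 6 members and below every control for 0, where 24.7% of all tested genes lay above, 36.9% below and 61.6% apart in either direction. All 8 would have passed this filter on the control libraries alone. Il11, Il11ra1 and Il6st did not pass the test, and Il6 did not reach the filter. The median log2 change of the 8 members was 0.61, against -0.07 over all genes tested. Every log2 change here is GAFCP minus control on log2(TPM + 1), a scale on which changes of genes with low TPM are understated. The plot of TPM by library shows each member's values.

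**Figure D1:**
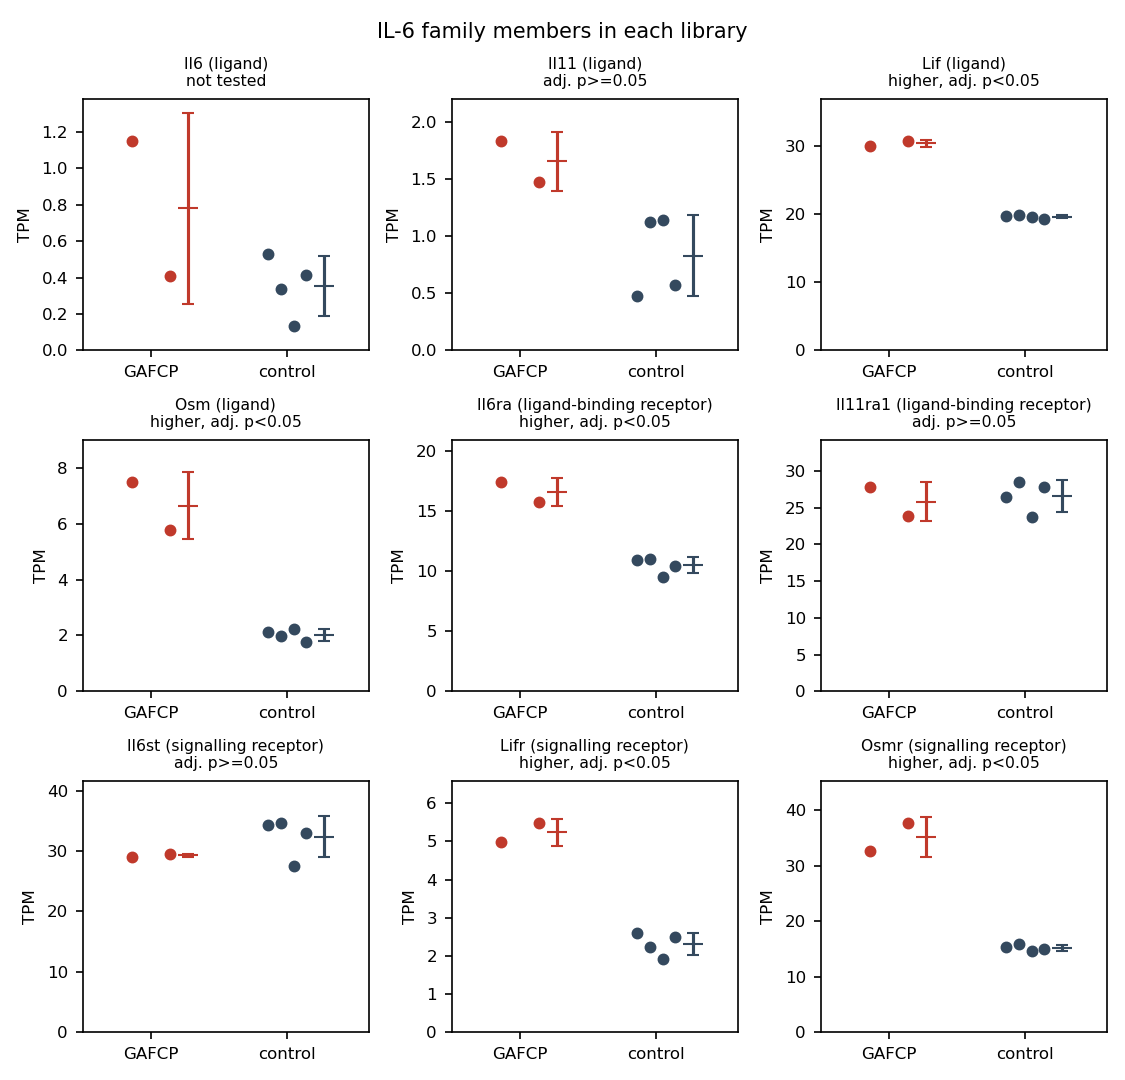
TPM of the 9 members in each library, with GAFCP (2 libraries, red) left of control (4 libraries, dark); dots are libraries, and the bar beside them gives the mean and SD. Lif, Osm, Il6ra, Lifr, Osmr and Il11 show no overlap between the groups, Osmr at 32.7 and 37.7 TPM with GAFCP against 14.6 to 15.9 TPM in controls.

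Markers of other cells moved in the same libraries. All 10 pan-leukocyte markers and all 14 macrophage and monocyte markers were higher with GAFCP, with median log2 changes of 1.23 and 1.87. The summed macrophage markers reached 3072 to 3076 TPM with GAFCP, against 842.0 to 886.7 TPM in controls, and the summed pan-leukocyte markers 337.3 to 349.6 TPM, against 119.9 to 140.5 TPM. Summed fibroblast and pericyte markers were 371.8 to 373.1 TPM with GAFCP, against 230.0 to 252.0 TPM in controls, with 8 of 12 tested markers higher and 2 lower. T and NK cell markers summed to 44.4 to 48.7 TPM, against 7.72 to 10.01 TPM, and neutrophil markers to 96.3 to 107.0 TPM, against 25.7 to 29.9 TPM. Of the 10 T and NK cell markers tested, 4 would have passed the filter on the controls alone, so their calls are not counted as support. Endothelial markers summed to 7.31 to 7.40 TPM, against 6.69 to 8.08 TPM. The tumor epithelial markers, which check the labelled cell type, summed to 5980 to 6025 TPM, against 7465 to 7911 TPM, with 2 of 10 higher and 5 lower. No marker of these lists was at 0 in all libraries. In bulk libraries fewer cells of a type and less RNA per cell cannot be told apart, and the part of these cells in the members' changes was not tested.

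Among the ligands, Lif, the leukemia inhibitory factor, was the most abundant. Lif was at 30.05 and 30.8 TPM in the GAFCP libraries, against 19.7, 19.9, 19.6 and 19.4 TPM in the controls. The groups did not overlap, and the controls lay very close together, with an SD of 1.19% of their mean. The log2 change was 0.61 ± 0.05 (SE; limma adjusted p = 3.3e-05), and the mean TPM was 1.55 times the control mean.

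Osm, oncostatin M, had the largest log2 change of the tested members. It was at 7.49 and 5.79 TPM in the GAFCP libraries, against 2.11, 1.97, 2.25 and 1.76 TPM in the controls, and the lower GAFCP library was still 2.57 times the highest control. The log2 change was 1.33 ± 0.13 (SE; limma adjusted p = 9.1e-05), which lay beyond the absolute change of 95.2% of all genes tested. Per 1000 TPM of summed pan-leukocyte markers, Osm was at 22.2 and 16.5 TPM with GAFCP, against 13.0 to 18.8 TPM in controls. Per 1000 TPM of summed macrophage markers it was at 2.44 and 1.88 TPM, against 2.09 to 2.66 TPM. On both of these scales the groups overlapped. Per 1000 TPM of summed fibroblast markers Osm was at 20.1 and 15.5 TPM with GAFCP, against 7.14 to 9.78 TPM in controls, without overlap. Osm made up 18.5% and 15.0% of the TPM of the 4 ligands in the GAFCP libraries, against 7.97% to 9.72% in controls.

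Il11, which acts on epithelial and stromal cells through Il11ra1, was at 1.84 and 1.48 TPM in the GAFCP libraries, against 0.474, 1.13, 1.14 and 0.573 TPM in the controls. The groups did not overlap, but the controls fell into a low and a high pair, and the difference did not pass the test (log2 change 0.56 ± 0.20, SE; limma adjusted p = 0.0526). The 95% interval of this log2 change ran from 0.09 to 1.02. The outcome was borderline. The limma adjusted p was 0.0336 without control library 2 and 0.0404 without control library 3. It was 0.0792 without control library 1 and 0.0983 without control library 4. With all 6 libraries kept it ran from 0.0139 with library weights to 0.134 with a block for replicate number. With a pseudocount of 0.1 it was 0.0741. Il11 passed in 6 of 17 alternatives.

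Il6 itself was barely detected. It was at 1.15 and 0.408 TPM in the GAFCP libraries, against 0.529, 0.335, 0.134 and 0.413 TPM in the controls. The groups overlapped, since GAFCP library 2 lay below control libraries 1 and 4, and GAFCP library 1 alone reached 1 TPM, so that Il6 was not tested. The difference on log2(TPM + 1) was 0.37, and it was 0.07 without GAFCP library 1 and 0.68 without GAFCP library 2.

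The promoters of Il6 and Lif are shown because these ligands, barely detected and abundant in the same libraries, both held inflammatory motifs. RefSeq sequences (GRCm38.p6) were given for 8 of the 9 members, and the 250 bases before the start were searched on both strands for 4 motifs. These were AP-1 (TGANTCA), STAT (TTCNNNGAA), C/EBP (TTGCNNAA) and the NF-kappaB consensus. Of 32851 windows of this length, 6.75%, 7.02%, 9.56% and 7.25% held them. Each sequence runs 5′ to 3′ on the plus strand, with matches in capitals.
Il6 (chr5:30012864-30013113): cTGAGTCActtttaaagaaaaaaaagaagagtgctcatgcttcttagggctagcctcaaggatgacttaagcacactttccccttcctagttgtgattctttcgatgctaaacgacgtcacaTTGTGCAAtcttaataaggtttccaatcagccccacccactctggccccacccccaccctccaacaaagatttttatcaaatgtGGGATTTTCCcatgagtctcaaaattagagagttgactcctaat
Lif (chr11:4257318-4257567): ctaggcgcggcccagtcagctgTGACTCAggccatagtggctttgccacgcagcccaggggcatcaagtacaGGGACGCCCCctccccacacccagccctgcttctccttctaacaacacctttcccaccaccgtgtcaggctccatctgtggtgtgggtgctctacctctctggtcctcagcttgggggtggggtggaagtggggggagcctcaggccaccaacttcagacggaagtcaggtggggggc
In Il6 the capitals mark, from the left, an AP-1 match, a C/EBP match on the other strand and an NF-kappaB match that begins 44 bases before the start. In Lif they mark an AP-1 match that begins 228 bases and an NF-kappaB match that begins 178 bases before the start. Apart from 1 AP-1 match at the second of the Il11 starts, no other member with a sequence held any of the 4 motifs in this window, which says only that these letters were not there. A match is a description of the letters and not a measured binding site.

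Of the receptors that bind IL-6 and IL-11, Il6ra passed the test and Il11ra1 did not. Il6ra, which binds IL-6 before gp130 joins, was at 17.5 and 15.8 TPM in the GAFCP libraries, against 10.9, 10.99, 9.56 and 10.5 TPM in the controls. The groups did not overlap, and the log2 change was 0.62 ± 0.08 (SE; limma adjusted p = 4.4e-04). Il11ra1 was at 27.7 and 23.9 TPM with GAFCP, against 26.4, 28.5, 23.7 and 27.8 TPM in controls, and the groups overlapped widely. Its log2 change of -0.04 ± 0.09 (SE; limma adjusted p = 0.73) had a 95% interval of -0.25 to 0.17, and its sign turned, to 0.027, with median-of-ratios scaling. The mouse genome carries a closely related copy, Il11ra2, for which no values were found here. How reads were divided between the copies could therefore not be examined.

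Il6st, the gp130 chain that the whole family needs, did not pass the test. It was at 29.1 and 29.4 TPM in the GAFCP libraries, against 34.4, 34.7, 27.5 and 33.0 TPM in the controls. Control library 3 lay below both GAFCP libraries and the other 3 controls lay above them. The log2 change was -0.14 ± 0.09 (SE; limma adjusted p = 0.26), with a 95% interval of -0.35 to 0.08. Without control library 3 the change was -0.21 and passed the test (adjusted p = 0.0056), while without any other library the adjusted p was between 0.372 and 0.491.

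The partner chains that join gp130 were both higher. Osmr, the oncostatin M receptor, was at 32.7 and 37.7 TPM in the GAFCP libraries, against 15.3, 15.9, 14.6 and 15.0 TPM in the controls. The lower GAFCP library was 2.06 times the highest control, and the log2 change was 1.16 ± 0.07 (SE; limma adjusted p = 7.9e-06), the smallest adjusted p among the members. Lifr, the LIF receptor, was at 4.99 and 5.49 TPM with GAFCP, against 2.59, 2.25, 1.92 and 2.49 TPM in controls. Its groups did not overlap, and its log2 change was 0.92 ± 0.12 (SE; limma adjusted p = 4.5e-04). The plot of log2 changes sets these members beside the other family genes tested.

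**Figure D2:**
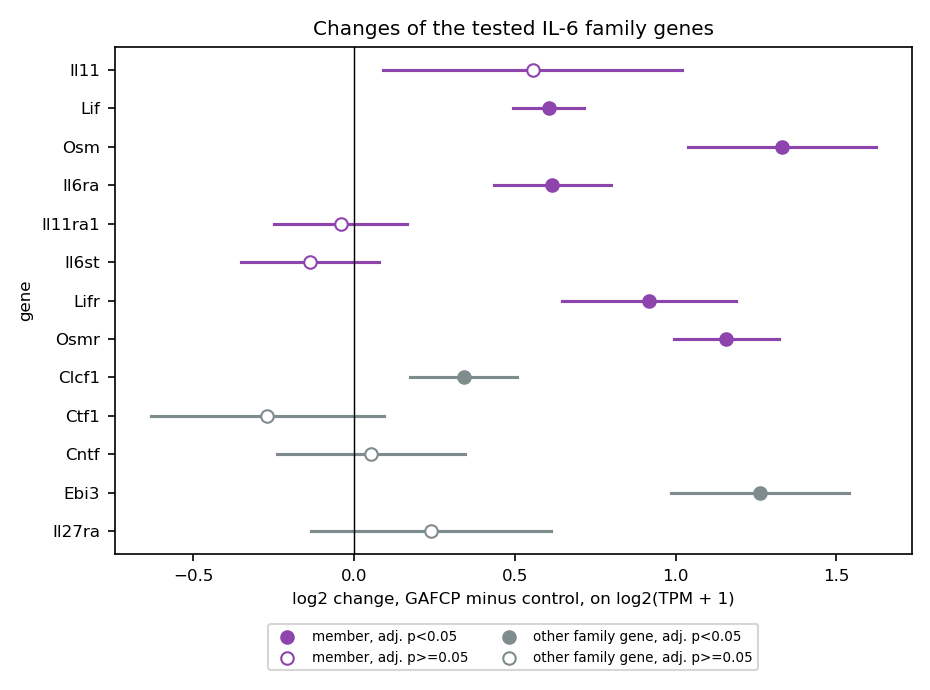
Log2 change (GAFCP minus control, on log2(TPM + 1)) of the 8 tested members (purple) and 4 other tested ligands and 1 other tested receptor of the family (grey); lines are 95% intervals from limma, and filled dots have an adjusted p under 0.05. Osm (1.33) and Osmr (1.16) lie farthest right among the members, and no filled dot lies left of 0.

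The order of the levels changed between the groups. With GAFCP, Osmr was highest (32.7 to 37.7 TPM), followed by Lif (30.05 to 30.8), Il6st (29.1 to 29.4), Il11ra1 (23.9 to 27.7), Il6ra (15.8 to 17.5), Osm (5.79 to 7.49), Lifr (4.99 to 5.49), Il11 (1.48 to 1.84) and Il6 (0.408 to 1.15), with no overlap between neighbours in these 2 libraries. In controls, Il6st (27.5 to 34.7 TPM) and Il11ra1 (23.7 to 28.5 TPM) led and overlapped each other, followed by Lif (19.4 to 19.9), Osmr (14.6 to 15.9) and Il6ra (9.56 to 10.99). Lifr (1.92 to 2.59 TPM) and Osm (1.76 to 2.25 TPM) overlapped in controls, as did Il11 (0.474 to 1.14 TPM) and Il6 (0.134 to 0.529 TPM). Osmr had a higher mean than 72.2% of tested genes with GAFCP, against 49.1% in controls, and Osm than 30.5%, against 12.3%.

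Ratios between members within a library put the receptor chains on a common scale. The ratio of Osmr to Il6st was 1.13 and 1.28 in the GAFCP libraries, against 0.446 to 0.530 in controls, so that Osmr exceeded Il6st in both GAFCP libraries and in no control. Lifr to Il6st was 0.172 and 0.186 with GAFCP, against 0.0649 to 0.0754, and Il6ra to Il6st was 0.601 and 0.536, against 0.317 to 0.347. Osmr to Lifr was 6.55 and 6.88 with GAFCP and overlapped the 5.92 to 7.59 of controls. Lif to Osm was 4.01 and 5.32 with GAFCP, against 8.72 to 10.99 in controls, all lower in the GAFCP libraries. These ratios are descriptions with no test, and those other than Osmr to Lifr and Il6ra to Il6st, including all ratios to marker sums, were chosen after the values were seen.

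**Figure D3:**
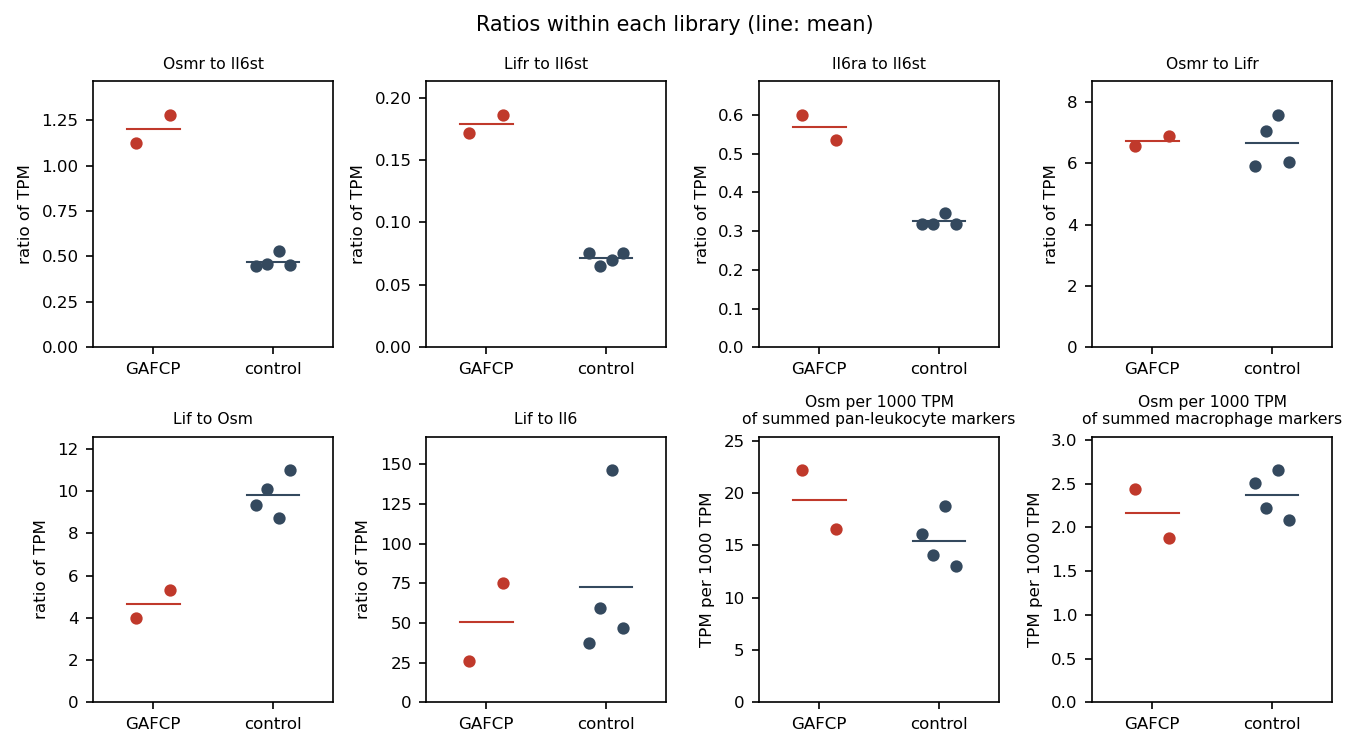
Ratios of TPM within each library, GAFCP (red) left of control (dark), with dots for libraries and a line for the mean; the 2 rightmost lower panels give Osm per 1000 TPM of summed cell markers. Osmr to Il6st is above 1 in the GAFCP libraries (1.13 and 1.28) and at 0.446 to 0.530 in controls, while Osmr to Lifr and both Osm marker ratios overlap between the groups.

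The other 4 called members were set against the same 3 marker sums. Per 1000 TPM of summed pan-leukocyte markers, Osmr was at 97.0 and 107.9 TPM with GAFCP, against 110.9 to 121.7 TPM in controls, and Lif at 89.1 and 88.1 TPM, against 141.7 to 163.5 TPM. Il6ra on this scale was at 51.7 and 45.2 TPM, against 77.4 to 83.3 TPM, and Lifr at 14.8 and 15.7 TPM, against 16.0 to 19.7 TPM. All 4 of these ratios were lower with GAFCP, without overlap. Per 1000 TPM of summed macrophage markers, Osmr was at 10.6 and 12.3 TPM with GAFCP, against 17.2 to 18.2 TPM in controls, and Lif at 9.78 and 10.01 TPM, against 22.5 to 23.4 TPM. Il6ra was at 5.68 and 5.14 TPM, against 11.3 to 13.0 TPM, and Lifr at 1.63 and 1.78 TPM, against 2.27 to 3.08 TPM. On the macrophage scale, too, all 4 were lower with GAFCP, without overlap. Such a ratio falls wherever the marker sum rises by more than the member does. Even Osmr, with a larger absolute log2 change than 93.8% of tested genes, fell on both scales. The share of all genes that fall on these scales was not computed, so the falls are not particular to the members. Which cells made these transcripts was not tested. Per 1000 TPM of summed fibroblast markers, Osmr was higher with GAFCP, at 88.0 and 101.1 TPM against 61.0 to 63.4 TPM, and Lifr was at 13.4 and 14.7 TPM against 8.36 to 10.4 TPM. Lif and Il6ra overlapped on the fibroblast scale, Lif at 80.8 and 82.6 TPM against 78.5 to 85.2 TPM and Il6ra at 46.9 and 42.3 TPM against 41.5 to 43.8 TPM.

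The called members lie on 3 chromosomes (GENCODE M21 on GRCm38, also called mm10, whole gene spans). Osm (chromosome 11, 4236420 to 4241026) and Lif (chromosome 11, 4257557 to 4272514) are on the plus strand with 16530 bases between them. Osmr (chromosome 15, 6813577 to 6874969, minus strand) and Lifr (chromosome 15, 7090614 to 7197489, plus strand) have 215644 bases between them. Il6ra is on chromosome 3 (89864059 to 89913196, minus strand). Of the others, Il6 is on chromosome 5 (30013114 to 30019981), Il11 on chromosome 7 (4772373 to 4782859), Il11ra1 on chromosome 4 (41699989 to 41769474) and Il6st on chromosome 13 (112464070 to 112510086). All 9 are protein-coding genes.

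Of the 4 other ligands of the family that were tested, 2 were higher and 0 lower. This was 50% in all, near the 47.5% of all genes tested, and the median log2 change was 0.20. Only 3 of the 4 would have passed the filter on the controls alone. The counts, share and median include Ebi3, which would not have, so its call is no support. Clcf1 encodes a cytokine that signals through gp130 and LIFR with the CNTF receptor. Clcf1 was at 94.5 and 103.5 TPM in the GAFCP libraries, against 70.3, 80.4, 78.2 and 83.1 TPM in controls (log2 change 0.34 ± 0.07, SE; limma adjusted p = 0.0056), a call lost on leaving out GAFCP library 2 (adjusted p = 0.0598). Clcf1 was more abundant than any of the 4 member ligands in every library.

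Ebi3 and Il27 encode the chains of IL-27, which also uses gp130. Ebi3 was at 3.89 and 3.62 TPM with GAFCP, against 0.955, 1.14, 0.841 and 0.998 TPM in controls (log2 change 1.26 ± 0.12, SE; limma adjusted p = 8.9e-05), and passed the filter only through the GAFCP libraries. Il27 was at 0.982 and 2.73 TPM, against 0.275 to 0.532 TPM, and was not tested. Ctf1 and Cntf, other ligands of LIFR complexes, did not pass the test (log2 changes of -0.27 and 0.05), Ctf2 was under 0.35 TPM in every library, and Il31 was listed at 0 in all of them. Of the other receptors, Il27ra did not pass the test (log2 change 0.24), and Cntfr, Il31ra and the IL-6 receptor-binding Sorl1 stayed under 1 TPM in every library.

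Below gp130, 4 of 10 JAK, STAT and adaptor genes were higher and 1 was lower, with a median log2 change of 0.11. This was 50% in all, near the 47.5% of all genes tested. Fewer were called with GAFCP library 1 left out, and likewise with GAFCP library 2 left out. Stat3, the main transcription factor of the pathway, was at 94.96 and 98.4 TPM in the GAFCP libraries, against 69.1, 71.6, 62.9 and 69.7 TPM in controls (log2 change 0.50 ± 0.06, SE; limma adjusted p = 2.5e-04). Grb2, an adaptor that links receptors to RAS, rose by 0.33. Jak1, the kinase that gp130 depends on most, rose by 0.24 on the log2 scale (adjusted p = 0.0072), a call lost on leaving out GAFCP library 1 (adjusted p = 0.0605). Jak2 and Tyk2 had log2 changes of 0.11 and 0.07 and did not pass (adjusted p of 0.231 and 0.279). Gab1, a docking protein that links gp130 to ERK signalling, changed by -0.35, a call lost without GAFCP library 2 (adjusted p = 0.0804).

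Of 11 tested brakes of the pathway, 7 were higher and 2 lower, with a median log2 change of 0.28. This was 81.8% in all, against 47.5% of all genes tested. Socs3, which binds gp130 and blocks JAK activity, was at 255.9 and 253.1 TPM with GAFCP, against 93.7, 97.7, 94.95 and 94.5 TPM in controls (log2 change 1.41 ± 0.03, SE; limma adjusted p = 6.6e-08). Socs1 was at 68.7 and 67.5 TPM, against 12.8 to 17.4 TPM, a log2 change of 2.05. Usp18, a brake of interferon receptors, rose by 1.87, and Ptpn6, a phosphatase most abundant in blood cells, by 1.12. The lower ones were Socs2 (-0.20) and Pias3 (-0.49), an inhibitor of STAT3, both lower by the test.

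Of 7 tested genes for receptor sheddases, their regulators and partner receptors, 4 were higher and 1 lower, with a median log2 change of 0.47. This was 71.4% in all, against 47.5% of all genes tested. The sheddases Adam10 and Adam17, which cut IL-6 receptors from the cell surface, were not called, with log2 changes of 0.09 and 0.04. Timp3, an inhibitor of Adam17, rose by 0.82. Rhbdf2 and Rhbdf1, which escort Adam17 to the surface, changed by 0.47 and -0.36. The other 2 higher genes encode receptors and not shedding proteins. Fgfr1, a growth factor receptor, rose by 1.30. Cd5, a receptor of T cells and some B cells, was at 1.12 and 1.58 TPM with GAFCP, against 0.130 to 0.204 TPM in controls. Cd5 passed the filter only through the GAFCP libraries, so its call is no support, though the counts, share and median of the list include it.

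Of 36 tested STAT3 target and acute-phase genes, 23 were higher and 5 lower, 77.8% in all against 47.5% of all genes tested, with a median log2 change of 0.51. Saa3, an acute-phase protein, was at 142.5 and 112.8 TPM with GAFCP, against 7.52 to 9.21 TPM in controls, a log2 change of 3.75. Hp, the hemoglobin-binding haptoglobin, was at 34.4 and 27.9 TPM with GAFCP, a log2 change of 2.14. Its controls, at 7.75, 8.31, 4.56 and 5.04 TPM, fell into a high and a low pair. The kinase gene Pim1 rose by 1.44, and the transcription factor genes Cebpb and Cebpd by 0.88 and 0.43. The call of Cebpd was lost without GAFCP library 1 (adjusted p = 0.0937). The 5 lower genes were Lbp, an acute-phase protein that binds endotoxin (-0.89), the cyclin gene Ccnd1 (-0.57), the siderophore-binding Lcn2 (-0.46), Myc (-0.17) and the survival gene Mcl1 (-0.14). Many genes of this list also respond to interferons, interleukin-1 or NF-kappaB. The list shares Socs3 with the brakes, Stat3 with the genes below gp130 and Hif1a with the inducers of the ligands. The counts of these lists are therefore not separate. The plot of log2 changes by list sets these genes beside the members and the cell markers.

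**Figure D4:**
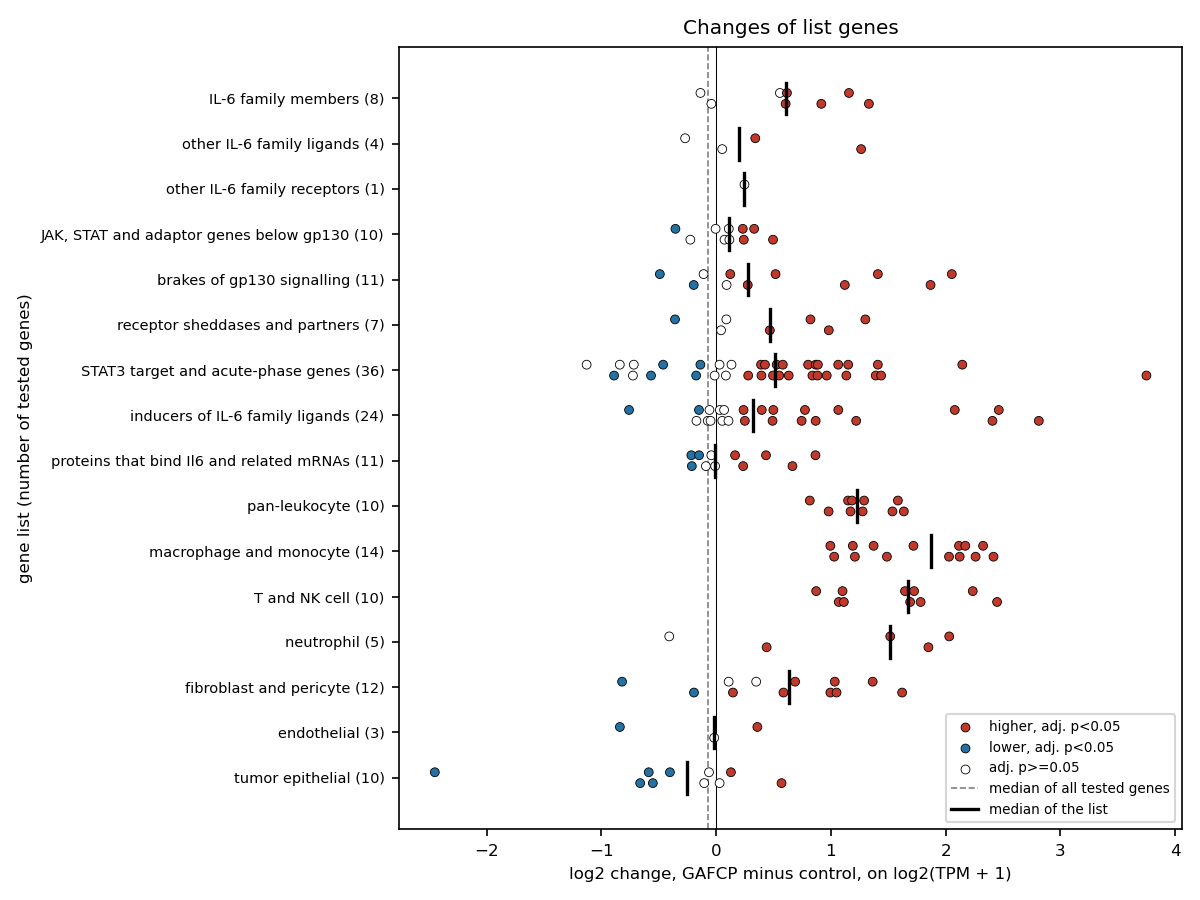
Log2 change (GAFCP minus control, on log2(TPM + 1)) of each tested gene, by list, with the number tested in brackets; red dots were higher and blue dots lower at an adjusted p under 0.05, white dots did not pass, black bars are list medians and the dashed line is the median of all tested genes (-0.07). The members' median is 0.61, and the pan-leukocyte and macrophage medians are 1.23 and 1.87.

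Of 24 tested genes known to induce the ligands or to carry that signal, 14 were higher and 2 lower. This was 66.7% in all, against 47.5% of all genes tested, and the median log2 change was 0.32. Il1a and Il1b, the interleukin-1 ligands, rose by 2.41 and 2.46, with Il1b at 37.9 and 38.0 TPM in the GAFCP libraries, against 5.51 to 6.60 TPM in controls. Tnf was at 11.8 and 14.3 TPM, against 0.564 to 1.64 TPM, a log2 change of 2.81. Tnf passed the filter only through the GAFCP libraries, so its call is no support, though the counts, share and median of the list include it. Ptgs2, which makes prostaglandin precursors, was at 291.9 and 291.6 TPM, against 63.5 to 72.6 TPM. The lower genes were the interleukin-1 receptor Il1r1 (-0.76) and Tgfb1 (-0.15).

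Proteins that control Il6 and related messenger RNAs gave 5 higher and 3 lower of 11 tested, with a median log2 change of -0.01. This was 72.7% in all, against 47.5% of all genes tested. Arid5a, which stabilizes Il6 messenger RNA, was at 15.3 and 13.9 TPM with GAFCP, against 7.34 to 8.17 TPM in controls (log2 change 0.87). Zc3h12a and Zfp36, which degrade such messenger RNAs, rose by 0.43 and 0.67. Elavl1, which stabilizes messenger RNAs rich in A and U, rose by 0.24, a call lost without GAFCP library 1 (adjusted p = 0.0546). The count of calls in this list was 4 without either GAFCP library. The 3 lower genes were Rc3h1, Zfp36l2 and Auh, with log2 changes of -0.21, -0.15 and -0.22.

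Genes whose profile was most like a member's were found by the Euclidean distance between log2(TPM + 1) values centred on each gene's mean over the 6 libraries, among the 10023 tested genes whose mean was 5 TPM or more and whose symbol is not that of a predicted gene. Those nearest Osmr were Ankrd1, Sirpa and Sdc3 (distances of 0.0958, 0.0981 and 0.125), with log2 changes of 1.16, 1.16 and 1.10. Those nearest Lif were St3gal1, Map3k6 and Map2k1 (0.0449, 0.0642 and 0.0667). Those nearest Il6st were Mpp5, Map3k5 and Papola (0.0361, 0.0442 and 0.0474). For Il6, whose values lie near the bottom of the scale, the nearest were Snord12, Tnfsf13 and Clcn4, at larger distances of 0.275, 0.313 and 0.324.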

How the data were processed

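The authors deposited 1 TPM value per gene and library; per the submitters' processing notes, Salmon was run on mm10. Its version and the annotation are not given in the sources. RNA came from a Qiagen kit and was sequenced commercially, per the labels' protocols. Groups and replicate numbers came from the titles.

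The 13720 genes that reached 1 TPM in 2 or more libraries were compared on log2(TPM + 1) by limma (version 3.58.1, R 4.3.3; eBayes with a mean-variance trend, 4 residual degrees of freedom), adjusting p by Benjamini-Hochberg over all of them. The code was checked on simulated data with independent noise and few changed genes. This does not test it where many genes are called, as here. Each list was counted whole, except for a few genes that are not reported here and were left out of lists, counts and figures. Named genes were the members, up to 4 called genes per pathway list with the largest absolute change and a mean of 1 TPM or more, and Jak1, Jak2, Tyk2, Stat3, Socs3, Cebpb, Cebpd and Zc3h12a; the rule let further genes of a counted list be given, and those lower by the test, Adam10, Adam17 and Cd5 were so chosen after their values were seen. Members and lists were chosen with earlier results of these data known. A list's share beside that of all genes is therefore a description and not an independent excess.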

Additional observations from a re-analysis of the deposited data

Results flagged for a closer look

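In 3 of the 47 genes examined, 1 control library stood apart from the other 3 by more than Dixon's critical value, a flag that chance gives in about 1 of 20 such groups, and none of them was a member. Control library 3 was low for Usp18, at 4.94 TPM against 6.74 to 6.99 TPM in the others, and high for Arid5a, at 8.17 TPM against 7.34 to 7.41 TPM. Control library 4 was low for Il27ra, at 0.755 TPM against 1.13 to 1.20 TPM.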

How the results depend on the processing

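Lif, Il6ra and Osmr stayed called in all 18 alternatives, and Osm and Lifr in the 17 that tested them. With a filter of a mean of at least 5 TPM, Osm, Lifr and Il11 were not tested and 3 members were called in place of 5. A pseudocount of 5 lowered the log2 changes of Osm and Lifr to 0.73 and 0.49. Il11 passed in 6 of 17 alternatives, with an adjusted p of 0.0139 to 0.264, and Il6st in 4 of 18, among them library weights (0.036) and controls 1 and 2 alone (0.00969). The log2 change of Il11ra1 turned to 0.027 with median-of-ratios scaling and 0.0051 with controls 3 and 4 alone, and ran from -0.14 to 0.062 when 1 library was left out, positive without GAFCP library 2. That of Cntf was -0.045 with controls 3 and 4 alone and ran from -0.041, without GAFCP library 1, to 0.15. The cause was not tested. Over all genes, 2606 were higher and 3909 lower, against 3533 and 3352 with median-of-ratios scaling, where the median log2 change was -0.002. Leaving out 1 library gave 4258 to 7226 calls, 4258 without GAFCP library 1 and 4313 without GAFCP library 2, with the lone GAFCP library taken to be as variable as the controls. Leaving out 1 library also gave 1715 to 2610 higher and 2514 to 4641 lower genes, 5 to 7 members and 102 to 128 list genes called.

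Jak2 and Tyk2 passed with median-of-ratios scaling and with quantile normalization, where 8 and 9 of the JAK, STAT and adaptor genes were called in place of 5. Leaving out 1 library gave 3 to 5 calls in that list and 1 to 2 among the other family ligands, where a mean of at least 5 TPM left 1 in place of 2. The genes that bind Il6 and related messenger RNAs gave 5 calls in place of 8 with controls 3 and 4 alone. The T and NK cell list gave fewer than its 10 calls with GAFCP library 1 left out, and likewise with GAFCP library 2 left out. It gave 0 with a mean of at least 5 TPM, where the neutrophil list gave 2 in place of 4. The endothelial list gave 0 or 1 in place of 2 in 7 alternatives, and the other family receptors 1 in place of 0 with no filter. With the replicate block, 5894 genes and 6 members were called, Il6st being the added one (adjusted p = 0.0261) and Cebpd lost (adjusted p = 0.0683). This fit compares the groups within replicates 1 and 2 only, so it is not separate from the setting of controls 1 and 2 alone. The log2 change of Il6st was -0.23 in both. Replicate numbers are not stated to mark a shared animal or day. Deviations of same-numbered libraries correlated at -0.01 and -0.02. With 2 GAFCP libraries, whose deviations mirror each other, this cannot tell whether the numbers pair libraries. With no filter, Il6 had an adjusted p of 0.195. The difference in the ratio of Osmr to Lifr on the log2 scale was 0.05 with a pseudocount of 0.1, against 0.24 with 1, and that of Lif to Il6 -0.28 against 0.23. Summing Il11ra1 with Il11ra2 was not run, as no values were found for Il11ra2. Low TPM limits Il6 and Il11 most, since the depth behind their values is unknown.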
